A study of Mus musculus with 24 samples.

Results

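Mouse mammary tumours from animals given E7386 at 50 mg/kg were compared with tumours from vehicle-treated animals on day 8, and the comparison covers all genes. It uses 8 of the 24 RNA-seq libraries of the study, 4 per group, chosen by the labelled agent and time point. E7386 is an oral small molecule described as interfering with the binding between β-catenin and CBP, a coactivator. The question is what 7 days of the higher dose changed. In the 50 mg/kg group, diced pieces of spontaneous tumours of the MMTV-Wnt1 line, strain B6SJL-Tg(Wnt1)1Hev/J, had grown in C57BL/6J hosts to about 200 mm3, a point named day 1, and the hosts then took the compound by mouth 2 times daily for 7 days. The vehicle group had the same transplanted tumours in the same host strain, with no E7386. The MMTV promoter drives Wnt1 mainly in mammary epithelium, so both groups carry the Wnt1 transgene in the tumour cells, while vessels, connective tissue and immune cells can come from the host. The number of donor tumours and the age of the hosts are not stated in the sources used here. Tumours of day 4, after 3 days of dosing, and tumours given 25 mg/kg to day 8 were used to ask whether the changes depended on time or dose. Nothing in the labels states that each library is a different animal. The p-values therefore reflect the spread among the libraries given here, part of which may be technical.

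Wnt1 is a secreted growth factor that stabilises β-catenin, which enters the nucleus and drives transcription together with TCF/LEF factors and the coactivators CBP and p300. MMTV-Wnt1 tumours are known for holding both luminal and basal epithelial cells. Solid tumours often outgrow their blood supply. At low oxygen, hypoxia-inducible factors (HIF) escape degradation and switch on genes for glucose uptake, glycolysis, lactate export, pH control and the growth of new vessels.

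Expression was given as TPM, the share of a transcript in its library after correction for its length. Between 14496 and 15127 genes reached 1 TPM per library, and mitochondrially encoded genes took 8.29% to 11.15% of the total. Wnt1, the gene of the transgene, lay at 57.6 to 166 TPM in the 50 mg/kg tumours and at 94.6 to 186 TPM in the vehicle tumours. Its change is given below with the Wnt genes. The luminal keratins Krt7, Krt8, Krt18 and Krt19 summed to 1083 to 1840 TPM at 50 mg/kg and to 1168 to 1774 TPM with vehicle. Vehicle replicate 4 stood apart from its group. On the first principal component, which held 32% of the variance of the 8 libraries, it lay at 29.2, beside 50 mg/kg replicates 3 and 4 at 22.6 and 34.3, while the other vehicle libraries lay between -31.9 and -21.1 and 50 mg/kg replicates 1 and 2 at -1.67 and -6.60. It also had the highest summed macrophage, neutrophil and endothelial markers of the vehicle group, so counts are given below with and without it.

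After 7 days at 50 mg/kg, 438 of 15736 genes passed (limma on log2(TPM + 1), adjusted p under 0.05), 120 higher and 318 lower. These were 2.78% of the genes tested, 0.763% in the higher and 2.02% in the lower direction. Falls were therefore more frequent than rises, but rises were larger: the median log2 fold change was 0.72 among the higher genes and -0.47 among the lower ones. A change of at least 2-fold was reached by 67 genes, 25 higher and 42 lower. In 70 of the higher and 276 of the lower genes, the 4 libraries of each group did not overlap. Over all genes tested, 1.58% did not overlap with 50 mg/kg above vehicle and 4.92% with 50 mg/kg below.

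Among the largest falls were Aire, a transcription regulator best known from the thymus, and genes of the low-oxygen response. Among named genes whose groups did not overlap, predicted genes left out, Wfdc12, Dapl1 and Cldn11 of the epithelium had the largest rises. In the plot of change against expression level, the falls reach high-level genes such as Vegfa, and the rises reach Krt14.

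**Figure D1:**
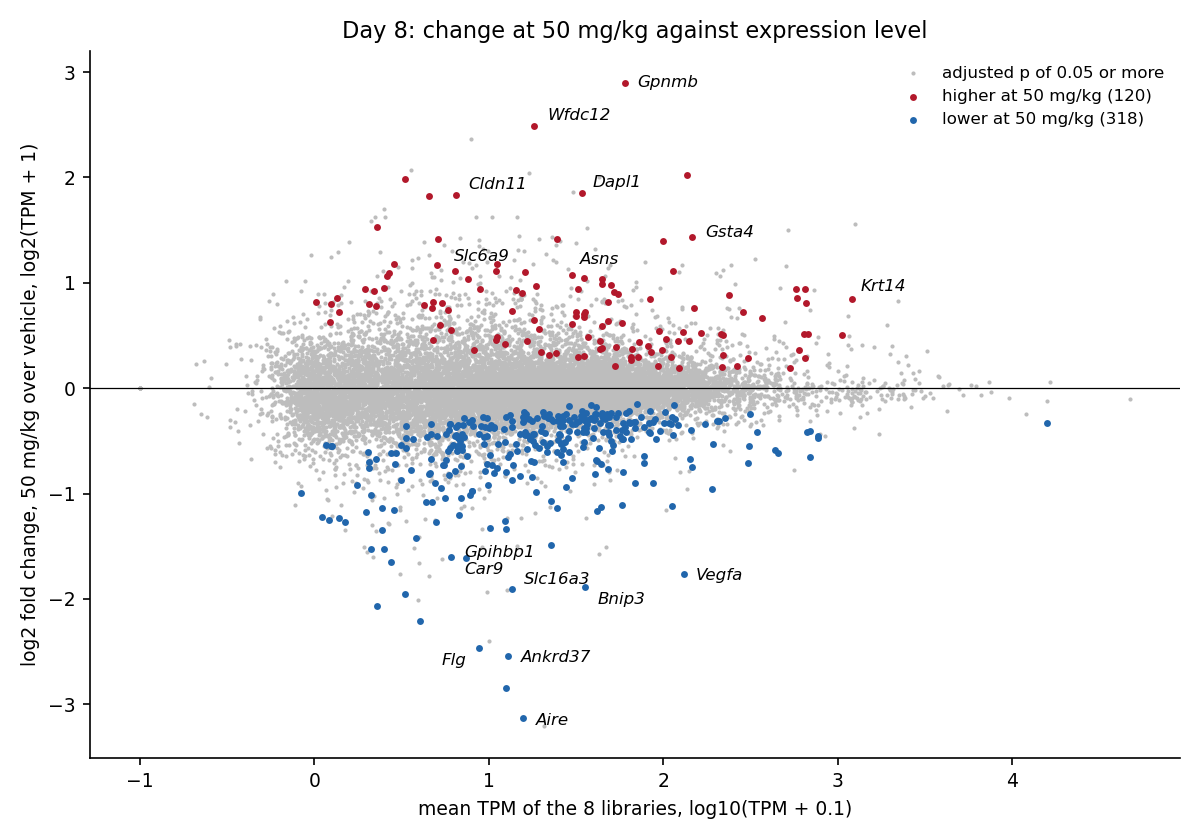
Log2 fold change of every gene tested on day 8, 50 mg/kg over vehicle, against its mean level in the 8 libraries on a log10 scale. Each point is a gene; 120 higher genes are red, 318 lower genes are blue and the rest are grey, with the largest called change in each direction at Gpnmb (2.90) and Aire (-3.13).

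The split between rises and falls depended on how libraries were scaled. With trimmed mean scaling 437 genes passed, 215 higher and 222 lower, and the median of all genes moved to 0.01 from -0.02. It also depended on single libraries. Without vehicle replicate 4, 1175 genes passed, 610 higher and 565 lower, and 412 of the 438 were among them. Without 50 mg/kg replicate 3 the count was 180 (36 higher, 144 lower), without vehicle replicate 1 it was 207 (50 and 157) and without vehicle replicate 2 it was 214 (40 and 174). The count of higher genes also moved to 193 without 50 mg/kg replicate 2, to 68 without 50 mg/kg replicate 4 and to 63 without vehicle replicate 3. In a fit of the 8 libraries alone, which leaves fewer degrees of freedom, 12 genes passed, and 11 of them were among the 438: Ankrd37, Plod1, Cox4i2, Gm17834, Asns, Prss35, Vegfa, Apold1, Bnip3, Tsc22d3 and Aire. Every other call named below rests on the spread shared with the other 16 libraries. In bulk tumour RNA, fewer cells of a type and less RNA per cell cannot be told apart.

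Genes of the low-oxygen response formed the clearest group. Of 26 hypoxia genes outside glycolysis, 15 fell and 0 rose, against the 2.02% of all genes that fell. Their median log2 fold change was -0.75, beside -0.02 over all genes tested, 25 of 26 had a negative value, and in 16 the 4 libraries at 50 mg/kg lay below the 4 vehicle libraries. Leaving out each library in turn left 13 to 16 members lower. Among members that did not pass, values ran from -1.14 for Adm to 0.08 for Hilpda, with Ddit4 at -0.0038 and Angptl4 at -0.016.

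Vegfa, the main growth factor for blood vessels (chromosome 17, 46016993 to 46032369, minus strand, GRCm38), had 47.7, 55.7, 51.8 and 80.1 TPM in the 50 mg/kg tumours and 263, 150, 180 and 215 TPM in the vehicle tumours. The highest 50 mg/kg library stood well below the lowest vehicle library. The log2 fold change was -1.76 (SE 0.24, adjusted p = 0.000313). Ankrd37, an ankyrin repeat gene induced by HIF, had 2.76, 5.08, 2.63 and 2.04 TPM at 50 mg/kg, against 22.1, 19.5, 26.7 and 21.3 TPM with vehicle (log2 fold change -2.54, SE 0.26, adjusted p = 2.05e-05). Its 2 groups were far apart, with little spread within either. It overlaps Ufsp2 on the opposite strand, and its value is uncertain for that reason. Bnip3, which promotes the removal of mitochondria, had 9.88, 15.1, 14.3 and 19.0 TPM at 50 mg/kg and 74.4, 39.3, 53 and 59.7 TPM with vehicle (log2 fold change -1.89, SE 0.24, adjusted p = 0.000226). Its relative Bnip3l fell as well, with a log2 fold change of -0.53 (adjusted p = 0.00305).

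Several HIF targets carry the core of the hypoxia response element close to their start. The core was searched as ACGTG or GCGTG on both strands, where matches may overlap, in the 250 bases before the most upstream RefSeq start of each gene (GRCm38.p6). Of the 29 genes that fell in the hypoxia and glycolysis lists together, 23 were matched to a promoter by symbol, and 19 of these (82.6%) held the core. Among all 27025 promoters of that length 38.6% held it, and among the 10703 of tested genes 55.6%. Of all tested members of these lists, fallen or not, 40 were matched to a promoter, and 30 (75%) held the core. The share was therefore already high in the lists as chosen. Whether the core went with falling inside the lists was not tested. The windows of Vegfa, Aldoa, Gpi1 and Tpi1 did not hold these letters. A match is a description and not a binding site. The windows below are shown because their genes fell by large amounts and hold several matches. They are 5′ to 3′ on the strand of the gene, with the core in capitals. Ankrd37 is at chr8:45999851-46000100 (minus), Slc16a3 at chr11:120948817-120949066 (plus), Bnip3 at chr7:138909507-138909756 (minus) and Pgk1 at chrX:106186850-106187099 (plus).
Ankrd37: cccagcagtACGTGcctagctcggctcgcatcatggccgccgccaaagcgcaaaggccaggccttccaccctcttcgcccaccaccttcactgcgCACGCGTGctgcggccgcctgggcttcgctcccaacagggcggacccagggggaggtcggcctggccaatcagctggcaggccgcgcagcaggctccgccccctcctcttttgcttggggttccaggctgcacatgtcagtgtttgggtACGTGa
Slc16a3: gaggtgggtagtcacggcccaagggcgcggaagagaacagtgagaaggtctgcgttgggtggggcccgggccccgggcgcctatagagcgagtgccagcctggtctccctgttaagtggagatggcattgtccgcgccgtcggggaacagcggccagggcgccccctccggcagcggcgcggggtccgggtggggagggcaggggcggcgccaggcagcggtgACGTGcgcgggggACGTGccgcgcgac
Bnip3: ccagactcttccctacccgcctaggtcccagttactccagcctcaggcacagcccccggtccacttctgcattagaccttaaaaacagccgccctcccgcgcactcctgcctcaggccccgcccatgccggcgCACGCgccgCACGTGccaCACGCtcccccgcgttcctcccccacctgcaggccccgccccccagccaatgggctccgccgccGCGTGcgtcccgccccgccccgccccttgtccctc
Pgk1: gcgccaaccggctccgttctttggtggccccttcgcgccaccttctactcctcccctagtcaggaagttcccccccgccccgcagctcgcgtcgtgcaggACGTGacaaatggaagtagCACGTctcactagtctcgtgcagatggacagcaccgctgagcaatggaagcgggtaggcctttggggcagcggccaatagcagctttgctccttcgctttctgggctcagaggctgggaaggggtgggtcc

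The next group of falls concerns acid balance and the hypoxic mitochondrion. Car9, a cell surface carbonic anhydrase that exports acid, had 1.75, 2.33, 1.24 and 5.13 TPM at 50 mg/kg and 12.5, 7.11, 10.1 and 7.78 TPM with vehicle (log2 fold change -1.60, SE 0.29, adjusted p = 0.00394), and it overlaps the antisense gene Gm12454. Cox4i2, the low-oxygen form of a cytochrome oxidase subunit, had 4.05, 2.55, 3.36 and 2.47 TPM at 50 mg/kg and 13.4, 9.78, 10.6 and 12.2 TPM with vehicle. In both genes the groups did not overlap. Ak4, a mitochondrial adenylate kinase, had a log2 fold change of -1.32 (adjusted p = 0.00109) and Higd1a, a small mitochondrial protein of the hypoxia response, one of -0.83 (adjusted p = 0.00184). Both fell. P4ha1, which hydroxylates proline in collagen, averaged 20.8 ± 2.20 TPM at 50 mg/kg and 38.5 ± 5.49 TPM with vehicle (SD, n = 4 each; log2 fold change -0.85, adjusted p = 0.000226).

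Other members that fell were the histone demethylase Kdm3a (log2 fold change -0.77), the differentiation gene Ndrg1 (-0.75), the disulfide oxidase Ero1l (-0.72) and the secreted glycoprotein Stc1 (-0.82), with adjusted p between 0.0111 and 0.017. Ndrg1 and Ero1l did not pass without vehicle replicate 1, Ndrg1 did not without 50 mg/kg replicate 3, and Stc1 did not without vehicle replicate 2. Plod1, a collagen lysine hydroxylase outside the list and named after its values were seen, had the smallest spread of the fallen genes described here. It lay at 30.5, 28.6, 29.0 and 28.4 TPM at 50 mg/kg and at 55.1, 49.7, 51.9 and 50.9 TPM with vehicle (log2 fold change -0.81, adjusted p = 6.85e-07).

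**Figure D2:**
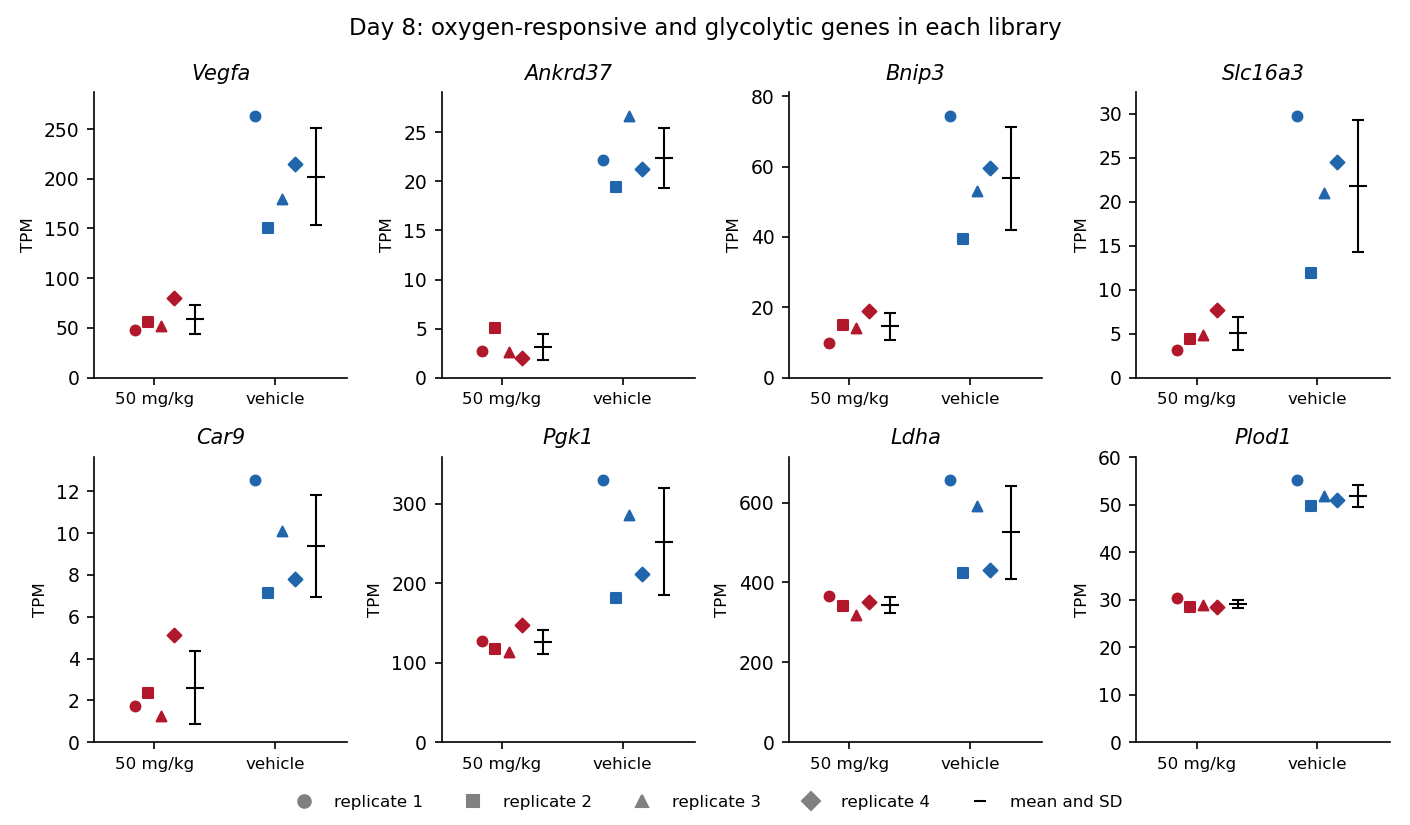
TPM of 8 oxygen-responsive or glycolytic genes in each library on day 8, with the 4 libraries at 50 mg/kg in red on the left of each panel and the 4 vehicle libraries in blue on the right; black marks give the mean and SD. In the 8 panels every 50 mg/kg library lies below every vehicle library, with Ankrd37 at 2.04 to 5.08 TPM against 19.5 to 26.7 TPM.

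Glycolysis genes fell along most of the pathway. Of 25 genes of glucose uptake, glycolysis and lactate handling, 14 fell and 0 rose, with a median of -0.48 and 13 members without overlap. The glucose transporter Slc2a1 had 22, 29.8, 21.5 and 26.8 TPM at 50 mg/kg and 72.6, 44.7, 59.2 and 54.8 TPM with vehicle (log2 fold change -1.17, SE 0.18, adjusted p = 0.00127). Its relative Slc2a3 was low, at 1.39 to 2.25 TPM at 50 mg/kg and 3.24 to 4.75 TPM with vehicle, and fell by 0.72.

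Of the enzymes that passed, in the order of the pathway, Gpi1 fell by 0.45, Pfkl by 0.90, Pfkp by 0.68, Aldoa by 0.65, Tpi1 by 0.71, Pgk1 by 0.96, Pgam1 by 0.42, Eno1 by 0.48 and Ldha by 0.59 on the log2 scale. Other steps were not shown to change. Hk1 (log2 fold change 0.01), Hk2 (-0.31), Gapdh (-0.28) and Pkm (-0.44) did not pass, with adjusted p from 0.0575 to 0.984. Pgk1, phosphoglycerate kinase, had 128, 117, 114 and 147 TPM at 50 mg/kg, against 330, 182, 287 and 212 TPM with vehicle. Ldha, which makes lactate from pyruvate, had 366, 341, 318 and 352 TPM at 50 mg/kg, against 656, 425, 592 and 431 TPM with vehicle. In Pgk1 and Ldha the vehicle libraries 1 and 3 were the high ones, and the groups did not overlap. The calls of Eno1 and Pgam1 were the least firm: both ended under trimmed mean scaling, and also when 50 mg/kg replicate 3, vehicle replicate 1 or vehicle replicate 3 was left out, and that of Pgam1 also without 50 mg/kg replicate 2 or 4. Tpi1 and Pfkp overlap Spsb2 and Pitrm1 on the opposite strand.

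The largest fall of the glycolysis list was at its last step. The lactate exporter Slc16a3 had 3.15, 4.40, 4.88 and 7.68 TPM at 50 mg/kg, against 29.8, 11.9, 21.0 and 24.5 TPM with vehicle (log2 fold change -1.90, SE 0.24, adjusted p = 0.000226). Every 50 mg/kg library lay below the lowest vehicle library. Bsg, the chaperone of such exporters and named after its values were seen, averaged 591 ± 32.0 TPM at 50 mg/kg and 787 ± 110 TPM with vehicle and fell by 0.40, a call that ended under trimmed mean scaling, or with vehicle replicate 1 or 50 mg/kg replicate 3 left out. Pdk1, which inhibits pyruvate dehydrogenase, fell by 0.79, and Pfkfb3, which activates phosphofructokinase, by 0.87. Glycogen synthase Gys1, also named after its values were seen, fell by 0.58 (adjusted p = 0.000821). It overlaps Ruvbl2 on the opposite strand.

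Of 9 genes of HIF and its control, 3 fell and 0 rose, and Egln1 and Egln3 among them also stand in the hypoxia list. The prolyl hydroxylase genes Egln1 and Egln3, which mark HIF for degradation and are themselves HIF targets, fell by 0.51 (adjusted p = 0.00231) and 1.12 (adjusted p = 0.00396). Egln3 had 45.5, 55.1, 83.2 and 104 TPM at 50 mg/kg, against 174, 123, 126 and 184 TPM with vehicle. The third was Arnt2, a partner of the HIF alpha subunits, whose groups overlapped (log2 fold change -0.53, adjusted p = 0.022) and whose call ended without any of 5 single libraries (vehicle 1, 2 or 3, 50 mg/kg 2 or 3) and under quantile normalization. Hif1a averaged 49.6 ± 5.62 TPM at 50 mg/kg and 59.3 ± 7.93 TPM with vehicle (adjusted p = 0.213). Epas1, the gene of HIF-2 alpha, had a log2 fold change of 0.03 (adjusted p = 0.927). The third prolyl hydroxylase gene Egln2 (-0.02), the asparagine hydroxylase gene Hif1an (-0.19) and Vhl, which targets HIF for degradation (-0.12), did not pass either, with adjusted p from 0.26 to 0.9.

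Vessel genes were lower in part. Of 16 genes of the VEGF and angiopoietin families, Vegfa, Pgf and Apln fell and 0 rose, with a median of -0.34. Placental growth factor Pgf, a relative of Vegfa, averaged 42.0 ± 8.36 TPM at 50 mg/kg and 60.9 ± 4.91 TPM with vehicle, and its call ended without vehicle replicate 1 or 3. The VEGF receptor genes Kdr and Flt1 did not pass, with log2 fold changes of -0.46 (adjusted p = 0.151) and -0.60 (adjusted p = 0.0821), although the 4 libraries of Flt1 at 50 mg/kg (8.65 to 11.2 TPM) lay below those with vehicle (12.4 to 18.0 TPM).

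Of 11 genes of tip cells, the cells that lead a growing vessel, Apln, Dll4 and Nid2 fell, the median was -0.55, and the value was negative in 11 of 11. Apln, the ligand of the apelin receptor, had 4.42, 3.17, 2.80 and 2.59 TPM at 50 mg/kg, against 8.56, 6.02, 7.08 and 9.12 TPM with vehicle (log2 fold change -1.04, SE 0.18, adjusted p = 0.00305). Dll4, a Notch ligand of tip cells, had 3.89, 2.98, 3.70 and 2.95 TPM at 50 mg/kg, against 4.68, 12.5, 7.12 and 15.4 TPM with vehicle. The 50 mg/kg libraries were alike, while the vehicle libraries of Dll4 spread widely, with replicate 4 the highest. Of 19 Notch pathway genes Dll4 and Notch4 fell and 0 rose. Dll4 and Nid2 overlap antisense genes. Esm1, another tip cell gene, did not pass (log2 fold change -0.78, adjusted p = 0.0652).

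Of 24 general endothelial markers, Notch4 fell (log2 fold change -0.97, adjusted p = 0.0174), 0 rose, 19 had a negative value and the median was -0.49. The defining markers Pecam1 and Cdh5 did not pass. Pecam1 had 24.7, 13.3, 31.3 and 16.0 TPM at 50 mg/kg and 16.8, 30.1, 33.6 and 52.2 TPM with vehicle (adjusted p = 0.255), and Cdh5 had a log2 fold change of -0.79 (adjusted p = 0.0569). The 24 markers summed to 232 to 385 TPM at 50 mg/kg and to 262 to 581 TPM with vehicle, with vehicle replicate 4 the highest, and 0 of them were at 0 TPM in any of the 8 libraries. Without vehicle replicate 4 their median was -0.33, with 1 marker higher and 1 lower, where 610 of all 15736 genes were higher and 565 lower. Without vehicle replicate 1 the median was -0.60, with 0 markers higher and 7 lower, where 50 of all genes were higher and 157 lower. The part of endothelial content in the falls of vessel genes was not tested.

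Other genes that endothelium is known to use were among the calls. Gpihbp1, which carries lipoprotein lipase across capillaries, had 9.97, 5.69, 16.3 and 10.8 TPM at 50 mg/kg, against 17.2, 37.5, 19.0 and 64.9 TPM with vehicle, and its call ended without vehicle replicate 2, without 50 mg/kg replicate 2 and with library weights. Apold1, an endothelial gene of the early stress response, had 2.0, 0.99, 1.38 and 1.94 TPM at 50 mg/kg, against 4.80, 5.89, 5.81 and 6.89 TPM with vehicle (log2 fold change -1.42, SE 0.20, adjusted p = 0.000381). Apold1 differed clearly, with no vehicle library near the 50 mg/kg range. Named after their values were seen, Vash1, an inhibitor of angiogenesis made by endothelium, fell by 0.81, the endothelial repressor Bcl6b by 0.95, the protocadherin gene Pcdh12 by 0.68 and the GTPase regulator Arhgap29 by 0.99, with adjusted p from 0.000226 to 0.0102. Vehicle replicate 4 was the highest library in all 4 of these genes.

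Of 11 pericyte genes, Rgs5, Abcc9 and Cox4i2, which pericytes also use, fell, 0 rose and the median was -0.32. Rgs5, a G protein regulator that marks pericytes, had 50.0, 33.8, 54.3 and 52.2 TPM at 50 mg/kg, against 89.9, 84.2, 71.1 and 113 TPM with vehicle (log2 fold change -0.90, SE 0.15, adjusted p = 0.00168). Its relatives Rgs4 and Rgs16, outside the list, fell as well, by 1.27 and 1.34. The 11 pericyte genes summed to 183 to 248 TPM at 50 mg/kg and to 261 to 397 TPM with vehicle, ranges that did not overlap. This sum includes Rgs5, so it is not a result separate from the fall of that gene. Of the 11 genes 10 had a negative value. The members Pdgfrb (log2 fold change -0.05), Notch3 (-0.19) and Des (0.26) did not pass, with adjusted p from 0.377 to 0.907. The call of Abcc9, a potassium channel subunit, ended without any of 6 single libraries (vehicle 1, 2 or 4, 50 mg/kg 1, 2 or 3). Of 13 basement membrane genes Col4a1, Col4a2, Lama4 and Nid2 fell and the median was -0.13. The collagen IV chain Col4a2 had 307, 167, 300 and 241 TPM at 50 mg/kg, against 354, 372, 362 and 365 TPM with vehicle, with 50 mg/kg replicate 2 the lowest. Its call ended without vehicle replicate 2, and that of Col4a1 without vehicle replicate 1, 2 or 3. Col4a1 and Col4a2 overlap each other head to head and cannot be fully separated without strand, and Lama4 passed in 2 of the 8 fits that leave out 1 library. Of 17 fibroblast and collagen genes 0 passed in either direction.

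Of 7 basal keratins, Krt14, Krt17 and Krt5 rose, 0 fell and the median was 0.84, against 0.763% of all genes that rose. The other 4 did not pass: the log2 fold change was 0.93 for Krt6a, 1.12 for Krt6b, -0.32 for Krt15 and -0.23 for Krt16, with adjusted p from 0.131 to 0.895. Krt14, the keratin of basal epithelium (chromosome 11, 100203162 to 100207548), had 1146, 1234, 1577 and 2286 TPM at 50 mg/kg, against 942, 741, 712 and 988 TPM with vehicle (log2 fold change 0.84, SE 0.17, adjusted p = 0.0103). Replicates 3 and 4 at 50 mg/kg were the high ones, and replicates 1 and 2 lay just above the vehicle range. Krt17 averaged 755 ± 224 TPM at 50 mg/kg and 392 ± 104 TPM with vehicle. Krt5, the partner of Krt14, averaged 785 ± 88.5 TPM at 50 mg/kg and 554 ± 102 TPM with vehicle, with overlap. Without 50 mg/kg replicate 3, without 50 mg/kg replicate 4 or without vehicle replicate 2 the calls of Krt17 and Krt5 ended, and Krt5 also lost its call without vehicle replicate 3 or 50 mg/kg replicate 2.

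The rest of the basal and luminal programmes was not shown to move with the keratins. Of 18 basal and myoepithelial genes, the integrin Itgb4 and the transcription factor Snai2 rose, 0 fell and the median was 0.01. Snai2 averaged 60.9 ± 1.33 TPM at 50 mg/kg and 46.5 ± 4.21 TPM with vehicle, yet its adjusted p of 0.0444 passed in 0 of the 8 fits that leave out 1 library. Itgb4 lay close to the threshold as well (adjusted p = 0.0463), and its call ended with no filter and in 6 of the 8 fits that leave out 1 library. Of 4 luminal keratins and 16 luminal factors 0 passed. Of 8 milk protein genes 0 passed. Among these Csn3, kappa casein, came nearest, with 788, 291, 490 and 297 TPM at 50 mg/kg and 235, 85.0, 276 and 202 TPM with vehicle (log2 fold change 1.22, adjusted p = 0.0537).

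Genes of cornifying, squamous epithelium split. Of 21, Dapl1, Calml3 and Sfn rose, Flg fell and the median was 0.57, or 0.30 without 50 mg/kg replicate 4. Dapl1, a gene of epithelial differentiation, had 38.0, 39.5, 61.2 and 78.1 TPM at 50 mg/kg, against 15.6, 9.06, 17.0 and 14.5 TPM with vehicle (log2 fold change 1.85, SE 0.27, adjusted p = 0.000821). Calml3, an epithelial calmodulin, had 576, 588, 869 and 966 TPM at 50 mg/kg, against 395, 428, 304 and 515 TPM with vehicle. In both genes every 50 mg/kg library was above the highest vehicle library. Flg, filaggrin of the outermost skin layer, which has several identifiers in the table, went the other way, with 1.18, 0.60, 1.12 and 6.73 TPM at 50 mg/kg and 15.5, 9.14, 12.8 and 22.3 TPM with vehicle (log2 fold change -2.47, SE 0.46, adjusted p = 0.00485). The call of Sfn, the 14-3-3 protein of stratified epithelium, ended without vehicle replicate 2 or 3 or 50 mg/kg replicate 3 or 4.

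**Figure D3:**
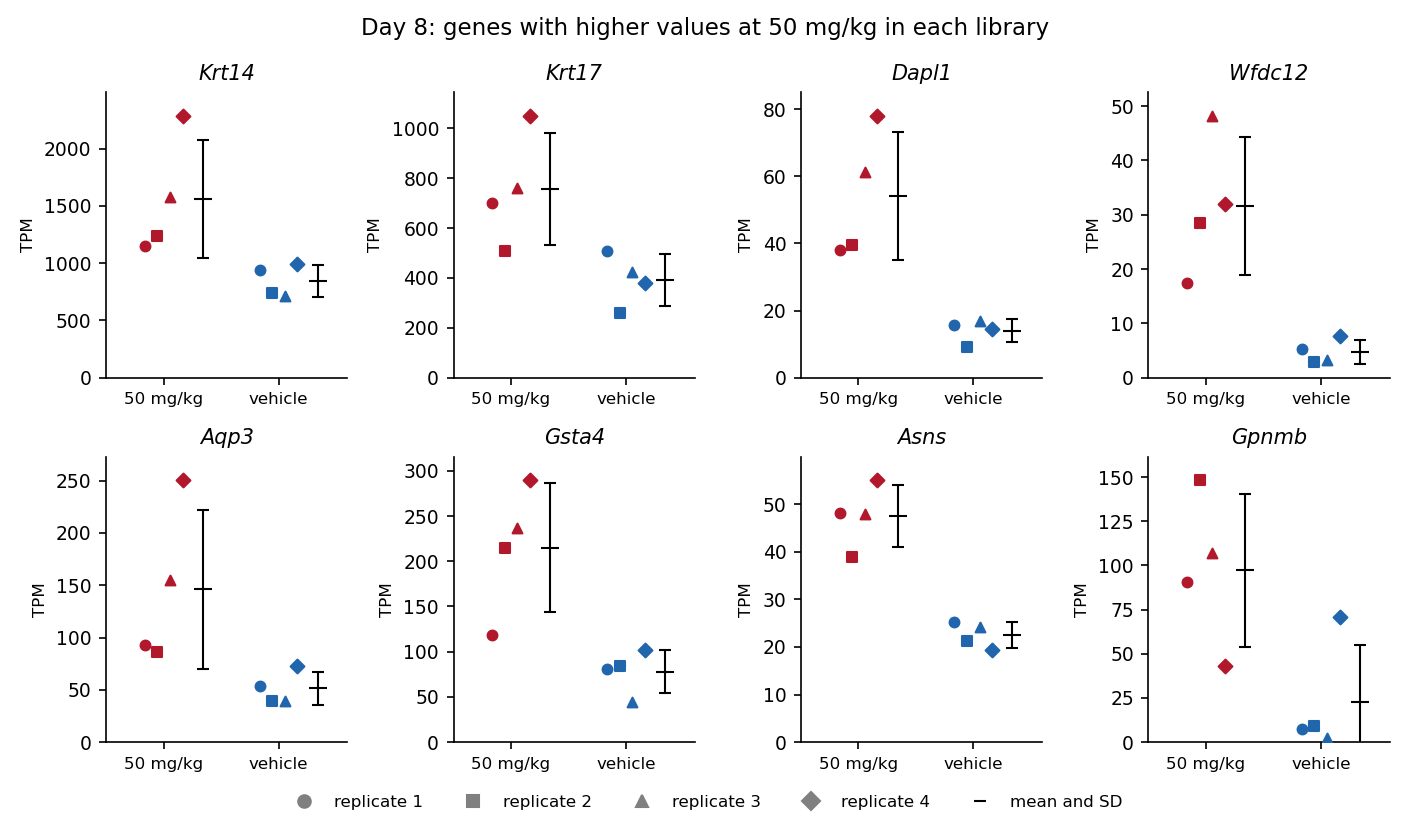
TPM of 8 genes that rose at 50 mg/kg in each library on day 8, with 50 mg/kg in red on the left and vehicle in blue on the right of each panel; black marks give the mean and SD, and the SD of Gpnmb with vehicle runs below the axis. In 7 panels every 50 mg/kg library lies above every vehicle library, while in Gpnmb vehicle replicate 4 (70.9 TPM) lies above 50 mg/kg replicate 4 (43.1 TPM).

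A few genes of secreted defence proteins, tight junctions and channels of epithelium had large rises without overlap, while most members of their lists did not pass. Over all genes tested, 0.763% rose and 1.58% did not overlap with 50 mg/kg above vehicle. Of 12 epithelial defence genes, Wfdc12 and Defb1 rose, 0 fell and the median was 0.81, with 9 positive and 3 negative values. Wfdc12, a small secreted protease inhibitor (chromosome 2, 164189231 to 164190608, minus strand), had 17.4, 28.5, 48.2 and 32.0 TPM at 50 mg/kg, against 5.29, 2.88, 3.26 and 7.58 TPM with vehicle (log2 fold change 2.49, SE 0.32, adjusted p = 0.000226). The lowest 50 mg/kg library was well above the highest vehicle library. Defb1, an antimicrobial defensin, averaged 8.94 ± 1.30 TPM at 50 mg/kg and 3.67 ± 1.14 TPM with vehicle, a call that ended without vehicle replicate 2 or 50 mg/kg replicate 3. Of 12 claudins, the tight junction proteins, Cldn11 rose and 0 fell, and of 6 aquaporins Aqp3 rose and 0 fell. Cldn11 had 6.92, 12.2, 11 and 11.3 TPM at 50 mg/kg, against 1.42, 3.19, 0.83 and 4.15 TPM with vehicle (log2 fold change 1.83). The water and glycerol channel Aqp3 had 92.7, 86.6, 155 and 250 TPM at 50 mg/kg, against 53.5, 39.6, 39.6 and 73.0 TPM with vehicle (log2 fold change 1.40).

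Of 19 detoxification genes, Gsta4 and Aox3 rose and 0 fell. Gsta4, a glutathione transferase that clears products of lipid oxidation, had 119, 215, 237 and 289 TPM at 50 mg/kg, against 81.4, 84.6, 44.5 and 102 TPM with vehicle (log2 fold change 1.44, SE 0.27, adjusted p = 0.00532). Replicate 1 was the lowest at 50 mg/kg but still above the vehicle range. The call of the aldehyde oxidase gene Aox3 ended without any of 5 single libraries (vehicle 1 or 3, 50 mg/kg 2, 3 or 4). Of 15 genes under the antioxidant factor NRF2, Gsr and Srxn1 rose and 0 fell. Gsr, glutathione reductase, averaged 71.8 ± 15 TPM at 50 mg/kg and 38.2 ± 8.52 TPM with vehicle (log2 fold change 0.90, adjusted p = 0.00169). The sulfiredoxin Srxn1 (log2 fold change 0.73, adjusted p = 0.0333) lost its call without any of 5 single libraries (vehicle 1, 2 or 3, 50 mg/kg 3 or 4). The glutathione peroxidase gene Gpx2 had 167, 117, 160 and 161 TPM at 50 mg/kg, against 93.5, 33.9, 99.4 and 70.6 TPM with vehicle, it overlaps Fntb, and its call ended without vehicle replicate 2 or 50 mg/kg replicate 3. Its relative Gpx1, named after its values were seen, averaged 676 ± 27.2 TPM at 50 mg/kg and 525 ± 34.6 TPM with vehicle (adjusted p = 0.00332).

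The integrated stress response, in which cells short of amino acids raise the genes of ATF4, was raised in a few members. Of 29 genes Asns, Atf5, Slc6a9, Herpud1 and Pck2 rose, Vldlr fell and the median was 0.26. Asparagine synthetase Asns had 48.1, 38.9, 47.8 and 55.0 TPM at 50 mg/kg, against 25.2, 21.1, 24.1 and 19.4 TPM with vehicle (log2 fold change 1.04, SE 0.16, adjusted p = 0.00109). The transcription factor Atf5 had 63.3, 42.8, 74.2 and 88.9 TPM at 50 mg/kg, against 32.0, 26.8, 31.1 and 41.8 TPM with vehicle. In Asns the groups were well apart, and in Atf5 replicate 2 at 50 mg/kg lay just above vehicle replicate 4. The glycine transporter Slc6a9 rose by 1.10 and the mitochondrial enzyme Pck2 by 0.45. Atf5 overlaps Nup62, and Slc6a9 overlaps B4galt2 and Ccdc24, each on the opposite strand. The calls of Slc6a9, Pck2, Herpud1 and Vldlr each ended without 50 mg/kg replicate 3 and without vehicle replicate 1, and those of Slc6a9, Herpud1 and Vldlr also without other single libraries. Of 18 genes of endoplasmic reticulum chaperones and the response to unfolded proteins, the transcription factor gene Xbp1 rose (log2 fold change 0.45, adjusted p = 0.0288) and 0 fell. Its call ended in 6 of the 8 fits that leave out 1 library, and no chaperone gene of the list passed.

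Tsc22d3, the glucocorticoid-induced leucine zipper, had 33.8, 41.4, 40.2 and 48.4 TPM at 50 mg/kg, against 17.0, 23.0, 18.2 and 17.2 TPM with vehicle (log2 fold change 1.08, SE 0.20, adjusted p = 0.00421). Its lowest 50 mg/kg value was above its highest vehicle value. Other genes known to respond to glucocorticoids were looked at after this, and Sgk1 (log2 fold change 0.76), Per1 (0.73) and Bcl6 (0.71) had adjusted p from 0.0203 to 0.0444. They were picked after their values were seen and not from a fixed list. How many such genes did not pass is not given, so they do not describe glucocorticoid-responsive genes as a set. The calls of these 3 genes ended without 50 mg/kg replicate 3, without 50 mg/kg replicate 4 and without vehicle replicate 3.

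Few targets of Wnt and β-catenin were shown to change. Of 14 Wnt target genes Nkd1 fell, 0 rose and the median was -0.12. In 3 of the 14 every 50 mg/kg library lay below every vehicle library, against 4.92% of all genes tested, and in 0 above. Nkd1, a feedback inhibitor of Wnt signalling, had 8.18, 6.71, 6.35 and 6.56 TPM at 50 mg/kg, against 9.03, 9.50, 9.11 and 9.01 TPM with vehicle (log2 fold change -0.36, adjusted p = 0.0302), and its call ended under both other scalings and in 6 of the 8 fits that leave out 1 library. Axin2, the most used reporter of β-catenin activity, had 31.5, 30.4, 30.9 and 45.4 TPM at 50 mg/kg and 33.7, 38.8, 34.4 and 48.9 TPM with vehicle (log2 fold change -0.17, adjusted p = 0.598). Lgr5, Myc and Ccnd1 did not pass either, with log2 fold changes of 0.51, -0.06 and -0.26. Wnt1 itself did not pass, but its log2 fold change was negative in all 18 alternative fits, from -1.11 to -0.48. In 2 of these fits it passed as lower. Without vehicle replicate 4, 2 of the 14 targets were higher and 4 lower, where 610 of all 15736 genes were higher and 565 lower. Of 17 genes of the Wnt core and its coactivators the kinase gene Gsk3b fell by 0.29 and 0 rose, a call that ended in 5 of the 8 fits that leave out 1 library. Ctnnb1, the gene of β-catenin, averaged 609 ± 87.4 TPM at 50 mg/kg and 653 ± 68.9 TPM with vehicle, and the CBP gene Crebbp 41.2 ± 5.53 and 42.9 ± 5.98 TPM. Of 9 YAP target genes Ctgf rose by 0.89 and Wwtr1, the gene of the coactivator TAZ, fell by 0.32. Each of these calls ended in 5 of the 8 fits that leave out 1 library.

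Of 23 DNA replication and 22 mitosis genes 0 passed by limma. Their medians were 0.01 and -0.10, and 21 of the 22 mitosis genes had a negative value. Without vehicle replicate 4 the medians were -0.16 and -0.32, and without vehicle replicate 3 they were 0.17 and 0.05, with 0 genes passing in either case. Mki67, a marker of dividing cells, had 116, 101, 79.1 and 75.4 TPM at 50 mg/kg and 136, 106, 136 and 68.0 TPM with vehicle (adjusted p = 0.513). The groups overlapped, and vehicle replicate 4 was the lowest of all. Of 23 cholesterol synthesis, 12 fatty acid synthesis, 15 p53 target, 16 immediate early and 9 ERBB genes 0 passed in either direction.

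Immune genes had higher medians at 50 mg/kg without any member passing. The medians were 0.54 for 22 type I interferon genes, 0.46 for 19 antigen presentation genes and 0.41 for 23 macrophage genes. The 23 macrophage markers summed to 2302, 2333, 2498 and 1834 TPM at 50 mg/kg, against 957, 1291, 1332 and 2463 TPM with vehicle, and 0 of them were at 0 TPM. Vehicle replicate 4 stood with the 50 mg/kg tumours, and the other 3 vehicle libraries lay below them. Without it 5 of 23 macrophage, 6 of 19 antigen presentation and 1 of 22 interferon genes rose, with medians of 0.67, 0.62 and 0.90. In that fit 610 of all 15736 genes rose, a share close to that of the interferon genes. Without 50 mg/kg replicate 4 the interferon median was -0.09. The 11 neutrophil markers, tested or not, summed to 29.9 to 117 TPM at 50 mg/kg. With vehicle they summed to 377 TPM in replicate 4 and 40.9 to 71.2 TPM in the other libraries. The median of the 6 that were tested was 0.26. Without vehicle replicate 4 it was 0.91 and 2 of the 6 rose.

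Some single genes of macrophages and other cells passed outside the lists and were named after their values were seen. Gpnmb, a glycoprotein of phagocytes, had the largest rise of all calls, with 90.6, 148, 107 and 43.1 TPM at 50 mg/kg, against 7.70, 9.13, 2.33 and 70.9 TPM with vehicle (log2 fold change 2.90, adjusted p = 0.0186). The groups overlapped through vehicle replicate 4, and the call ended without vehicle replicate 1, 2 or 3 or 50 mg/kg replicate 3. Ctsd, a lysosomal protease, rose by 0.50 and the B cell and macrophage receptor Cd72 by 0.94, with adjusted p of 0.0477 and 0.0478. Ly6a had 85.8, 85.2, 259 and 440 TPM at 50 mg/kg, against 23.8, 31, 26.0 and 145 TPM with vehicle (log2 fold change 2.03, adjusted p = 0.0387), with vehicle replicate 4 again the high one. The calls of Ctsd, Cd72 and Ly6a ended in 6, 5 and 5 of the 8 fits that leave out 1 library. Nos2, the inducible nitric oxide synthase, fell: it had 0.74, 0.53, 0.58 and 1.13 TPM at 50 mg/kg and 2.78, 2.33, 2.20 and 4.75 TPM with vehicle. Muscle markers varied within both groups, from 19.9 to 373 TPM summed at 50 mg/kg and from 18.1 to 323 TPM with vehicle. Their part in the results above was not tested.

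Of 58 nuclear genes of the respiratory chain, Ndufb9 and Cox8a rose by 0.20 and 0.19, 0 fell and the median was 0.08. Cox8a averaged 564 ± 3.75 TPM at 50 mg/kg and 495 ± 30.8 TPM with vehicle. Of 13 mitochondrially encoded genes mt-Co1 fell by 0.33, a call that ended under trimmed mean scaling and without 50 mg/kg replicate 3, and 0 rose. The calls of Ndufb9 and Cox8a ended under quantile normalization and without 50 mg/kg replicate 3, and that of Ndufb9 also without 3 other single libraries. Of 11 iron genes, the transferrin receptor Tfrc fell by 0.94 and the iron sensor Ireb2 by 0.22, a call that ended under both other scalings and in 6 of the 8 fits that leave out 1 library. Tfrc had 18.1, 23.3, 16.2 and 16.1 TPM at 50 mg/kg, against 45.1, 30.8, 42.1 and 28.3 TPM with vehicle, with no overlap, though its call ended without vehicle replicate 1 or 3 or 50 mg/kg replicate 3. Of 86 ribosomal protein genes 0 passed.

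**Figure D4:**
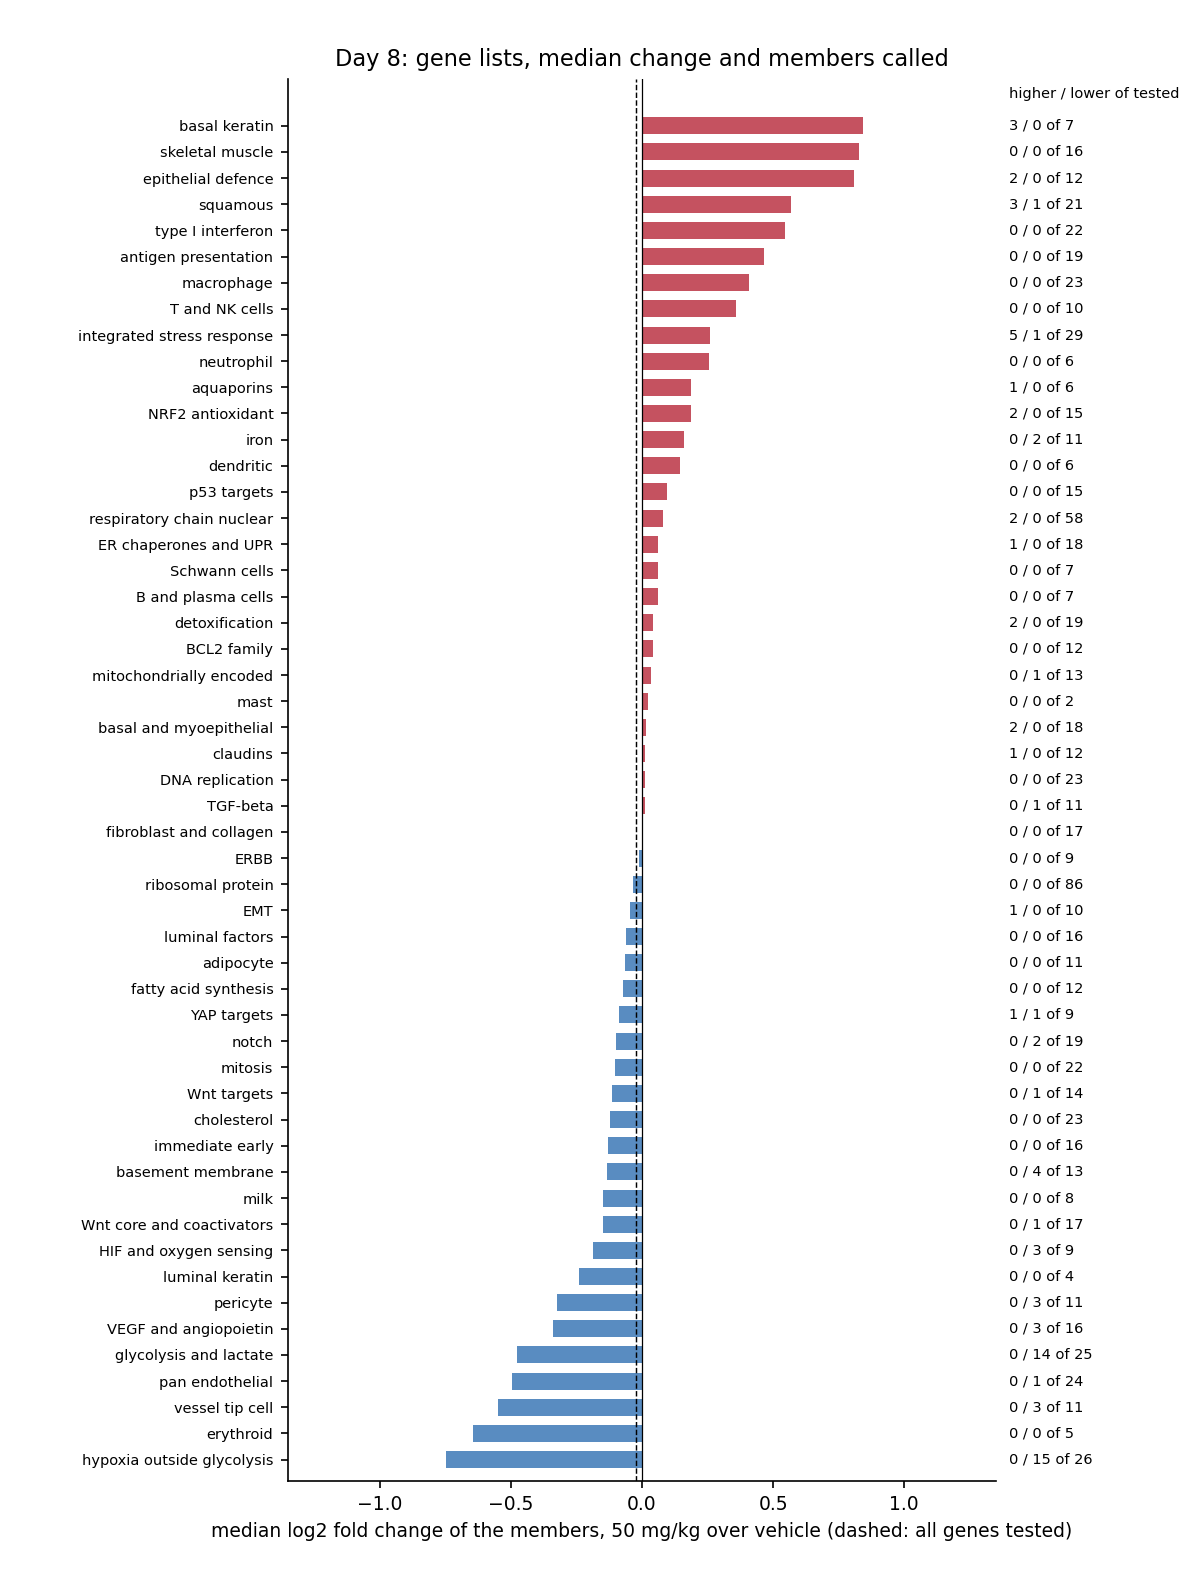
Median log2 fold change on day 8, 50 mg/kg over vehicle, of the members of 52 gene lists, with the number of members higher, lower and tested at the right; the dashed line is the median of all genes tested (-0.02). Hypoxia genes outside glycolysis have the lowest median (-0.75, 15 of 26 lower) and basal keratins the highest (0.84, 3 of 7 higher).

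Some of the largest falls belonged to none of these groups. Aire (chromosome 10, 78030022 to 78043610, minus strand) had 1.37, 3.17, 0.85 and 5.08 TPM at 50 mg/kg, against 40.0, 25.0, 32.4 and 17.5 TPM with vehicle (log2 fold change -3.13, SE 0.57, adjusted p = 0.00396). Prss35, a secreted protein of the serine protease family, had 0.61, 0.57, 0.62 and 0.96 TPM at 50 mg/kg, against 8.08, 4.00, 6.87 and 4.00 TPM with vehicle (log2 fold change -1.95, SE 0.21, adjusted p = 2.51e-05). In both genes the groups were far apart. Sorcs1, a sorting receptor named after its values were seen, fell by 1.05 (adjusted p = 0.00127).

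The same dose after 3 days, with its own vehicle group, was used to ask which of these changes differed between the days. On day 4, 1457 genes passed (9.26%). Of the 438 genes of day 8, 113 were among them (25.8% of the day 8 calls and 7.76% of the day 4 calls), 109 in the same direction, 37 higher and 72 lower on both days. Passing or not, 336 of the 438 had the same sign on day 4 as on day 8. A test of the difference between the 2 effects found 226 genes (1.44%), and 58 of these were called on day 8. The other 380 of the 438 were not shown to differ between the days. The count of 226 depended on single libraries. It was 92, 143 and 140 without vehicle replicates 1, 2 and 3 of day 4, 150, 101 and 136 without 50 mg/kg replicates 2, 3 and 4 of day 4, 113 and 601 without vehicle replicates 2 and 3 of day 8, and 125, 129 and 471 without 50 mg/kg replicates 1, 3 and 4 of day 8.

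Several stress response genes had larger rises on day 4 than on day 8. Asns had a log2 fold change of 1.04 on day 8 and 2.66 on day 4, a difference of -1.61 (SE 0.22, adjusted p = 0.000617). It averaged 47.5 ± 6.57 TPM at 50 mg/kg and 22.5 ± 2.68 TPM with vehicle on day 8, against 166 ± 22.4 and 25.5 ± 2.66 TPM on day 4. The differences were -2.03 for Slc6a9, -1.66 for Atf5, -1.10 for Pck2, -1.10 for the cysteine tRNA synthetase Cars and -1.08 for the asparagine tRNA synthetase Nars, with adjusted p from 0.00014 to 0.012. The rises of Cars and Nars on day 8 each lost their call in 5 of the 8 fits that leave out 1 library. Of the 29 genes of the list, 24 passed on day 4 and 15 differed between the days. Of 23 cholesterol genes 20 passed on day 4, 0 passed on day 8 and 5 differed between the days.

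A few genes of epithelium and of glutathione use differed in the other direction. Wfdc12 had a log2 fold change of 2.49 on day 8 and -0.17 on day 4, a difference of 2.66 (SE 0.45, adjusted p = 0.00363). Dapl1 differed by 1.93 (adjusted p = 0.0132), Gsta4 by 1.55 (adjusted p = 0.0468), Gpx2 by 1.64 (adjusted p = 0.0281) and Gsr by 0.93 (adjusted p = 0.0278). On day 4 the values of Wfdc12, Dapl1, Gsta4, Gpx2 and Gsr were -0.53 to -0.04 and did not pass. Of the 7 basal keratins, 12 claudins and 6 aquaporins, 0 were shown to differ between the days, and the keratin median was 0.84 on day 8 and 0.48 on day 4. Among genes that fell on day 8, the vessel-associated Arhgap29 and Ramp3, the receptor partner of adrenomedullin, and the transcription factor Sox4 also differed, by -0.95, -1.22 and -0.63.

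Members of the hypoxia and glycolysis lists also passed on day 4. Of the 26 hypoxia genes 11 passed on day 4, with a median of -0.45, and of the 25 glycolysis genes 16, with a median of -0.56. In each list 1 member was shown to differ between the days. Ankrd37 had log2 fold changes of -2.54 on day 8 and -1.89 on day 4, and Slc16a3 -1.90 and -1.91. Vegfa had -1.76 on day 8 and -0.56 on day 4, where it did not pass (adjusted p = 0.139), but the difference did not pass either (adjusted p = 0.0741).

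**Figure D5:**
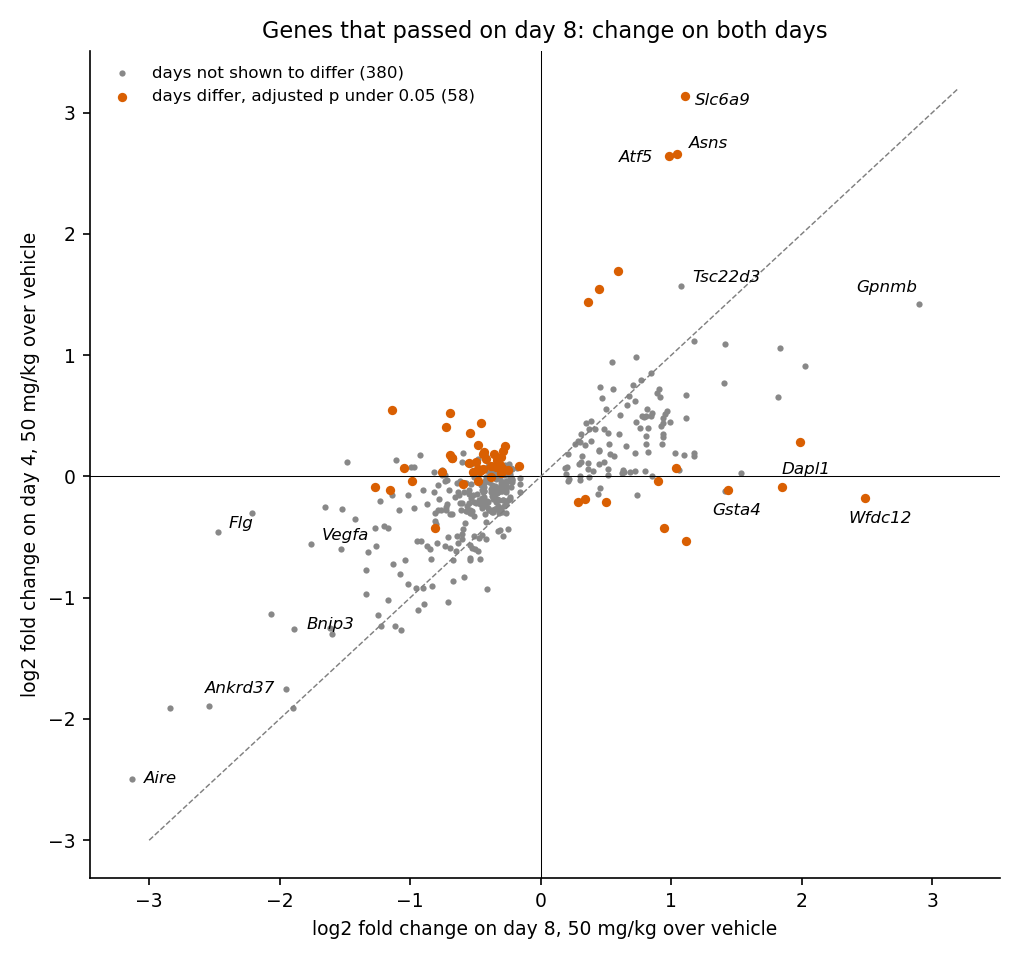
Log2 fold change at 50 mg/kg over vehicle on day 4 against that on day 8 for the 438 genes that passed on day 8; the dashed line marks equal change. Orange points are the 58 genes whose change differed between the days, among them Asns, Atf5 and Slc6a9 above the line and Wfdc12, Dapl1 and Gsta4 far below it.

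The lower dose on day 8 gave no call against the same vehicle libraries: 0 genes passed by limma at 25 mg/kg, and 468 had an unadjusted p under 0.05, against 2820 at 50 mg/kg. By chance about 5% of the 15736 genes tested would have such a p, which is more than 468. The 50 and 25 mg/kg groups themselves differed in 170 genes (1.08%). That count was 293 and 56 without 50 mg/kg replicates 1 and 3, and 73, 38 and 113 without 25 mg/kg replicates 2, 3 and 4. Vegfa had 106, 206, 162 and 155 TPM at 25 mg/kg and was 1.39 lower at 50 mg/kg on the log2 scale (adjusted p = 0.00798). Ankrd37 averaged 14.3 ± 4.15 TPM at 25 mg/kg, between the means of 3.13 TPM at 50 mg/kg and 22.4 TPM with vehicle, and differed between the doses by -1.90 (adjusted p = 0.00178). Wfdc12 lay at 4.97 to 7.74 TPM at 25 mg/kg, near the vehicle range, and differed between the doses by 2.0 (adjusted p = 0.00657). Krt14 averaged 834 ± 49.6 TPM at 25 mg/kg and differed between the doses by 0.85 (adjusted p = 0.016). For Asns, at 31.8 ± 7.90 TPM with 25 mg/kg, the doses were not shown to differ (adjusted p = 0.0711).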

How the data were processed

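Total RNA of bulk tumours was sequenced, and the authors deposited 1 table of TPM, not read counts, for 24 libraries in 6 groups of 4. Per the submitters' processing notes the tools were Trimmomatic 0.36, STAR 2.5.0c, RSEM 1.2.31 and bcl2fastq. Whether the counting used strand is not given in the sources used here. The columns have equal totals, so the depth behind a value is unknown. A gene that takes a larger share lowers the TPM of the others.

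Of 47729 genes, 15736 had 1 TPM or more in at least 4 of the 24 libraries and were tested. Values were analysed as log2(TPM + 1), which understates the change of low genes. The 24 libraries entered one model of 6 group means (limma version 3.58.1 under R version 4.3.3; moderated variances with a trend, 18 residual degrees of freedom, two-sided, Benjamini-Hochberg over all genes tested, threshold 0.05). The 3 contrasts were 50 mg/kg minus vehicle on day 8, that effect minus the effect on day 4, and 50 minus 25 mg/kg on day 8. The procedure was tested on simulated data. Identifiers matched GENCODE M21 (GRCm38) for 47310 genes, and promoters came from RefSeq.

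Named genes are the 15 largest rises and falls without overlap at a mean of 5 TPM or more in either group, the members of 52 gene lists that passed (up to 8 each, or the 2 with the smallest p), 12 genes always given, and the 10 smallest p of the difference between days. Others are marked as named after their values were seen. The members and lists were chosen with earlier results of these data known. Alternatives were 2 other scalings, 2 other filters, 2 other pseudocounts, library weights, robust variances, a replicate block, a fit of the compared groups alone, and leaving out each library.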

Additional observations from a re-analysis of the deposited data

Results flagged for a closer look

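In 386 groups of 4 libraries tested for a library far from the others, 21 were marked, and chance marks about 1 in 20 groups. Vehicle replicate 4 was the far library in 10 of them: Krt8 (203 TPM), Srxn1 (12.4), Egfr (31.4), Irf7 (38.1), Psmb10 (14.3), Cd3g (1.01), Il1b (30.3), Bcl2a1b (23.6), Ifitm2 (614) and Ly6a (145). In the other vehicle libraries, replicate 1 was far for Bnip3l (262 TPM), replicate 2 for Cars (29.1) and replicate 3 for Bcl6 (19.4). Among the 50 mg/kg libraries, replicate 4 was far for Capns2 (18.7 TPM), Prss35 (0.96), Axin2 (45.4), Pfkp (38.1) and Gpx1 (716), replicate 1 for Scd2 (158) and Trac (12.8), and replicate 2 for Gpx2 (117).

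The effect of 50 mg/kg differed between the days in 26 named genes (limma, adjusted p from 0.00014 to 0.0487). Some of these genes were named because their p for this same difference was among the smallest. The count of 26 was therefore partly set by that choice. On the log2 scale, day 8 minus day 4, the difference was positive for Wfdc12 (2.66), Csn3 (1.95), Dapl1 (1.93), Gpx2 (1.64), Gsta4 (1.55), Ddit4l (0.97), Gsr (0.93) and Ifitm2 (0.50). It was negative for Slc6a9 (-2.03), Atf5 (-1.66), Asns (-1.61), Ramp3 (-1.22), Rgs4 (-1.18), Vldlr (-1.13), Sorcs1 (-1.12), Pck2 (-1.10), Cars (-1.10), Nars (-1.08), Kcnj2 (-1.04), Arhgap29 (-0.95), Rapgef5 (-0.90), Pfkp (-0.83), Myadm (-0.74), Sox4 (-0.63), Rmnd5a (-0.52) and Plod1 (-0.39).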

How the results depend on the processing

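Of 193 named genes 127 passed on day 8, and 0 of these 127 changed direction in the 18 alternatives; the value of 8 genes that did not pass crossed 0 (Crebbp, Ep300, Epas1, Hdc, Myc, Pecam1, Pparg and Tpsb2). Of the 127, 10 passed in every alternative (Aire, Ankrd37, Apold1, Asns, Bnip3, Cox4i2, Plod1, Prss35, Tsc22d3 and Vegfa) and 117 lost their call at least once. The fit of the compared groups alone gave 12 genes (3 higher, 9 lower), 68 for the difference between days and 77 between doses; it has fewer samples. Library weights gave 2888 genes (1401 higher, 1487 lower), 745 and 2264, and the cause was not tested. Trimmed mean scaling gave 215 higher genes in place of 120, with the median of all genes at 0.01 in place of -0.02, and the cause was not tested. Leaving out each library gave 180 to 1175 genes, 36 to 610 higher and 144 to 565 lower, 92 to 601 between days and 38 to 293 between doses. Same-numbered replicates did not pair: the correlations of their deviations were -0.19 to 0.34, and 2 of 4 matched their own number best. With the number as a replicate block 542 genes passed, and 343 in place of 226 differed between days. Depth limits low genes but is unknown from TPM.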

Other observations

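Of 10 T and NK cell, 7 B and plasma cell, 6 dendritic, 6 neutrophil, 2 mast cell, 11 adipocyte, 7 Schwann cell, 5 erythroid and 16 skeletal muscle genes, 0 passed on day 8 by limma. Without vehicle replicate 4, 2 neutrophil and 1 dendritic gene were higher and 1 Schwann cell gene was lower, and without 50 mg/kg replicate 1, 1 dendritic gene was lower. Of all 15736 genes, 610 were higher and 565 lower in the first of these fits, and 288 lower in the second. Of 12 genes of the BCL2 family 0 passed. Of 10 genes of epithelial to mesenchymal transition Snai2 rose and 0 fell. Ddit4l, a relative of the stress gene Ddit4, rose by 1.04 on the log2 scale (adjusted p = 0.00107).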
